A study of Drosophila melanogaster with 6 samples.

Results

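The proteasome is the protease complex that degrades proteins tagged with ubiquitin, and its genes were examined in larval muscle lysates after knockdown of Mad, the nuclear effector of BMP signalling. Members were all genes whose symbol starts with Prosalpha, Prosbeta, Rpn or Rpt followed by a number, which gave 48 of the 17807 genes of the deposited table. Of these, 32 carried no suffix and are called constitutive subunits here by name alone, and 16 carried an R or T suffix that marks a paralogue. The small lid subunit Sem1 is outside the rule. The rule used names and no measured value, but it was chosen with earlier results of these data known. Larvae of the genotype Dmef2-Gal4>UAS-madRNAi (Mad knockdown, 3 libraries) were compared with larvae of the genotype Dmef2-Gal4>UAS-mCherryRNAi (control knockdown, 3 libraries). Dmef2-Gal4 drives a hairpin in muscle, and mCherry is a fluorescent protein that flies lack, so both groups carried the driver and a hairpin. Each library came from lysates enriched for body wall muscle, pooled from 6 to 10 wandering third-instar larvae, and was made from poly(A) RNA. The labels do not say whether replicates were reared separately, so p-values measure the spread between these pools.

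The proteasome consists of a barrel-shaped core particle and caps known as regulatory particles. The core has outer rings of alpha subunits, which form the gate, and inner rings of beta subunits, some of which cut peptide bonds. In the cap, the base holds a ring of AAA+ ATPases (Rpt) that unfold substrates, and the lid removes ubiquitin before they enter. In striated muscle the ubiquitin and proteasome pathway is known as a main route for removing sarcomere proteins, and in flies several subunits have second copies that are used in the testis.

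Depth and the labels were checked first. Reads recovered from the deposited normalized counts came to 109301864 to 127220949 per library after Mad knockdown and to 96639921 to 124490149 in the controls. Mad itself (FBgn0011648, chromosome 2L) had normalized counts of 4348, 5643 and 5053 in Mad knockdown replicates 1, 2 and 3, against 7533, 7658 and 7009.7 in control knockdown replicates 1, 2 and 3. Its mean after Mad knockdown was 67.8% of control, for a log2 fold change of -0.57 ± 0.102 (SE; limma, Benjamini-Hochberg adjusted p = 0.0440). The exact permutation test, two-sided, gave p = 0.1, which is the smallest possible with 3 libraries in each group. The call was lost in 8 of 19 other fits. Over all 19, adjusted p lay between 0.000114 (DESeq2) and 0.143 (limma without control knockdown replicate 2). In lysates, fewer muscle cells and less RNA per cell cannot be told apart, here or below. For an increase, more RNA per cell and a larger share of RNA from other cells cannot be told apart either.

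All 32 constitutive subunits had a positive log2 fold change after Mad knockdown, and none passed the test across all genes. Their median was 0.21, from 0.04 to 0.29, which is a fitted level 15.7% higher at the median and from 2.90% to 22.0% higher at the extremes. Over the 10348 genes tested the median was 0.01 and 51.1% of genes had a positive change. No member was called at an adjusted p-value under 0.05 in limma, against 2.59% of all genes tested, and the smallest adjusted p-value of a member was 0.157. An unadjusted p-value under 0.05 with a positive change was reached by 15 of the 32, and by 8.31% of all genes. In 20 of the 32 every Mad knockdown library lay above every control library, as it did in 11.6% of all genes. edgeR called no member and 2.44% of all genes, and in it 16 subunits had a positive change at an unadjusted p-value under 0.05, as had 8.99% of all genes. DESeq2 called 1 member, Prosalpha3, and 9.64% of all genes. The 32 genes were measured in the same 6 libraries, so their shared direction is not a set of independent observations.

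The count of 15 changed when 1 library was left out. Such fits also have fewer libraries to measure the spread, so a lower count need not reflect the library removed. The count was 0 without control knockdown replicate 3 (6.25% of all genes in that fit) and 1 without Mad knockdown replicate 1 (6.60%). It was 10 without Mad knockdown replicate 3 (share of all genes not given). It was 3 without Mad knockdown replicate 2 (6.40%) and 3 without control knockdown replicate 1 (7.21%), but 23 without control knockdown replicate 2 (6.81%). It was also 23 after quantile normalization (10.1%) and after removal of a trend of the fold change with gene length and level (9.04%). The median change kept its sign in each of these fits, from 0.14 without control knockdown replicate 3 to 0.26 without control knockdown replicate 2. With all libraries it was 0.210. It was 0.198 without Mad knockdown replicate 1, 0.189 without Mad knockdown replicate 2 and 0.213 without control knockdown replicate 1, where the counts were low.

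**Figure D1:**
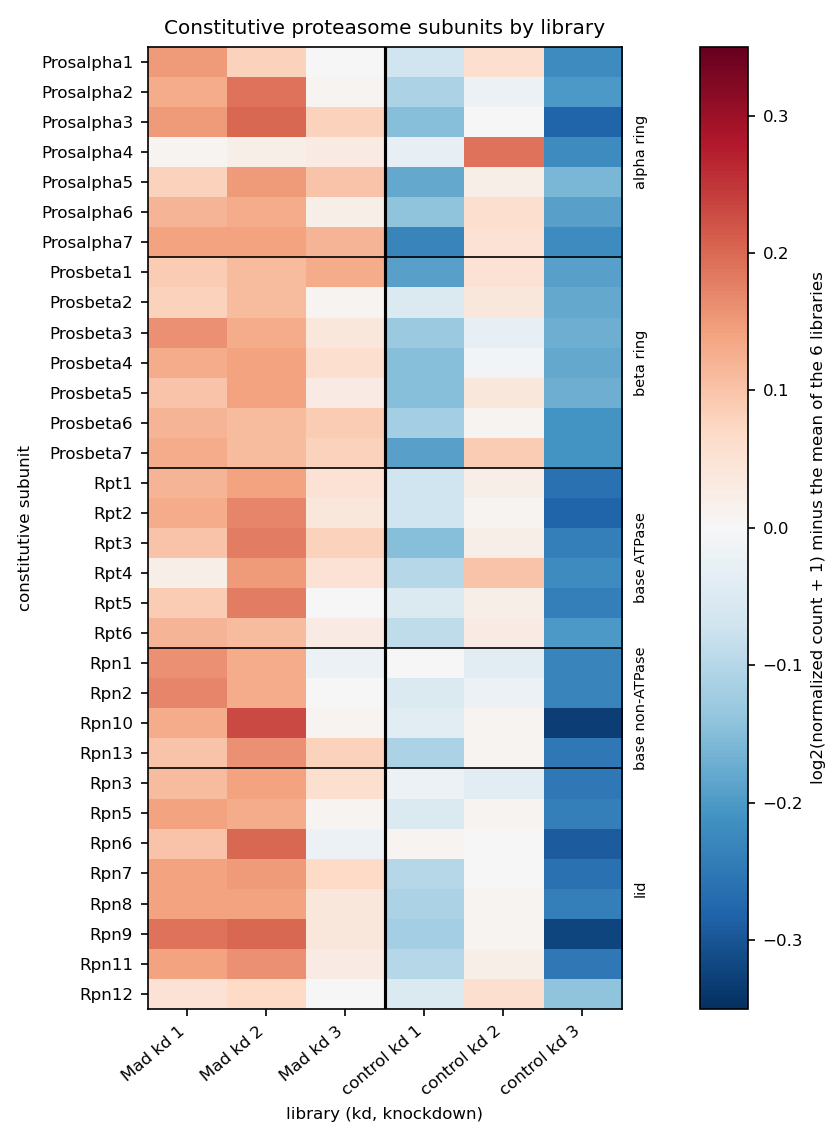
Rows are the 32 constitutive subunits in order of ring or cap part, columns the 3 Mad knockdown and 3 control knockdown libraries, and colour the log2(normalized count + 1) minus the mean of the 6 libraries. Control knockdown replicate 3 is the lowest library for 29 subunits, and control knockdown replicate 2 and Mad knockdown replicate 3 lie closest to 0.

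The subunits varied together from library to library. As the difference from the mean of the 6 libraries on the log2 scale, their median was 0.12, 0.14 and 0.04 in Mad knockdown replicates 1, 2 and 3, against -0.10, 0.02 and -0.23 in control knockdown replicates 1, 2 and 3. The medians of the groups did not overlap, but Mad knockdown replicate 3 and control knockdown replicate 2 were 0.02 apart. Control knockdown replicate 3 was the lowest of the 6 libraries for 29 of 32 subunits (90.6%), where it was lowest for 16.8% of all genes tested. Mad knockdown replicate 2 was the highest for 21 of 32 (65.6%), where it was highest for 19.1% of all genes. In the alpha ring, the beta ring, the base and the lid alike, control knockdown replicate 3 had the lowest median and replicate 2 the highest of the controls. The alpha ring had medians of 0.13, 0.14 and 0.03 after Mad knockdown, against -0.14, 0.05 and -0.22 in controls, and the lid had 0.14, 0.15 and 0.03 after Mad knockdown, against -0.07, 0.01 and -0.25 in controls. Mad knockdown replicate 3 exceeded control knockdown replicate 2 in 21 of the 32 genes.

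Summed over the 32 genes, normalized counts were 2070807, 2109758 and 1955036 in Mad knockdown replicates 1, 2 and 3, against 1791788, 1932126 and 1621944 in control knockdown replicates 1, 2 and 3. The lowest Mad knockdown sum lay just above the highest control sum, that of replicate 2. As a share of all reads, the subunits held 1.82% ± 0.0418 after Mad knockdown and 1.54% ± 0.126 in controls (SD, n = 3 each). The controls had the larger spread. No size factor enters this share, but it depends on the reads of all other genes.

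The alpha ring forms the gated end of the barrel. Prosalpha3 (FBgn0261394, chromosome 2R, 20994900 to 20996118, plus strand), whose yeast counterpart has the tail that closes the gate, had the largest log2 fold change of the ring, shared in the complex with Rpn9. Its normalized counts were 63326, 65511 and 60385 in Mad knockdown replicates 1, 2 and 3, against 51309, 57073 and 47119 in control knockdown replicates 1, 2 and 3. All 3 Mad knockdown values exceeded the highest control, the log2 fold change was 0.29 ± 0.090 (SE), and adjusted p was 0.157 by limma and 0.0473 by DESeq2. Prosalpha7 had 50479.8, 50529 and 49673 after Mad knockdown, against 39152, 47282 and 39379 in controls, a log2 fold change of 0.27 (limma, adjusted p = 0.183). Its 3 Mad knockdown values were close together, and the spread lay in the controls. For Prosalpha5 the counts were 49776, 52330.0 and 50436 after Mad knockdown, against 41626, 47939 and 42112 in controls. Prosalpha2 had 53059, 55374 and 48912 after Mad knockdown, against 45034, 48105 and 42465 in controls. In both genes the lowest Mad knockdown value exceeded the highest control, the log2 fold change was 0.21, and adjusted p in limma was 0.211 for Prosalpha5 and 0.223 for Prosalpha2.

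The smallest change of the complex was also in this ring. Prosalpha4 (FBgn0004066, chromosome X, 16276270 to 16277587, plus strand) had 47898, 48301 and 48521 after Mad knockdown, against 46532, 54164 and 40876 in controls. The Mad knockdown values lay inside the control range, and its log2 fold change of 0.04 ± 0.108 (SE; limma, adjusted p = 0.887) was below 0 after quantile normalization (-0.012) and without control knockdown replicate 3 (-0.058). Prosalpha1 and Prosalpha6 had overlapping groups, with log2 fold changes of 0.15 and 0.18.

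The beta ring holds the cutting sites. Prosbeta5 (FBgn0029134, chromosome 2R, 10819978 to 10821178, plus strand), which has the chymotrypsin-like activity, had 70206, 71886 and 66818 in Mad knockdown replicates 1, 2 and 3, against 58984, 67196 and 58214 in controls. Mad knockdown replicate 3 lay just below control knockdown replicate 2, and the log2 fold change was 0.18 (SE 0.083). Prosbeta1 (FBgn0010590, chromosome 2R, 16013805 to 16014787, minus strand), with the caspase-like activity, had 36911, 37383 and 37893 after Mad knockdown, against 30356, 35814 and 30478 in controls, and its groups did not overlap. Its log2 fold change was 0.22 (SE 0.082). Prosbeta2 (FBgn0023174, chromosome 3L, 14999951 to 15001319, plus strand), the trypsin-like subunit, had 56401, 57629 and 53595 after Mad knockdown, against 51519.9, 54786 and 47185 in controls, with overlapping groups and a log2 fold change of 0.13 (SE 0.080). The adjusted p-values of the 3 catalytic subunits in limma were 0.305 for Prosbeta5, 0.218 for Prosbeta1 and 0.454 for Prosbeta2. The difference between the catalytic subunits was not tested.

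The other beta subunits, which have no catalytic residue and complete the ring, had log2 fold changes of 0.21 and 0.22. Prosbeta3 had 46129, 45258 and 42331 after Mad knockdown, against 37757, 40318 and 36627 in controls, and Prosbeta4 had 40074, 40559 and 38282 after Mad knockdown, against 33138, 36550.0 and 32447 in controls. Prosbeta6 had 44001, 43549 and 43069 after Mad knockdown, against 37159, 40671 and 35036 in controls. In these 3 genes the groups did not overlap, the log2 fold changes were 0.22, 0.22 and 0.21, and the adjusted p-values in limma were 0.161, 0.165 and 0.192. Prosbeta7 had a like change, 0.21, but overlapping groups.

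**Figure D2:**
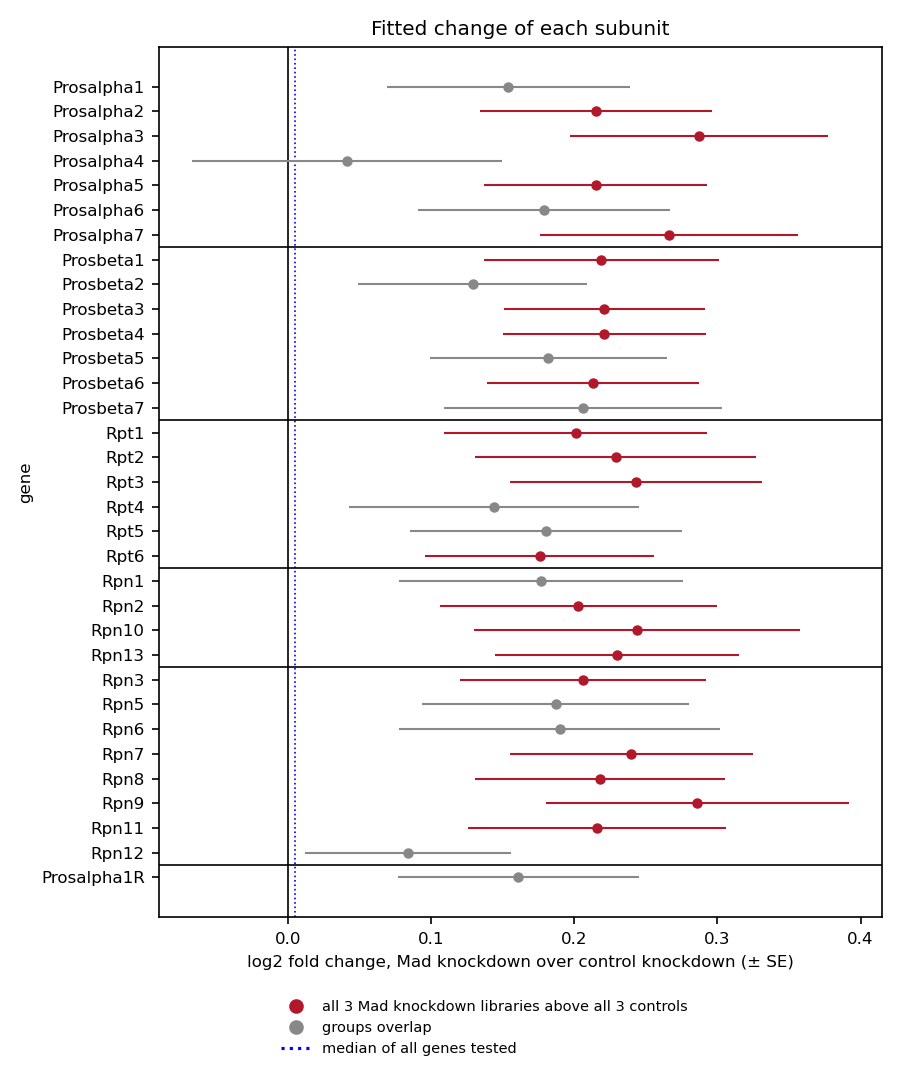
Points are log2 fold changes (Mad knockdown over control) with their standard errors, for the 32 constitutive subunits by ring or cap part and, at the bottom, Prosalpha1R. All 32 lie to the right of 0, between 0.04 and 0.29, and red marks the 20 subunits whose groups did not overlap.

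The base of the cap holds the ATPases and the ubiquitin receptors. Its 10 genes had a median log2 fold change of 0.20, from 0.14 to 0.24, and in 7 every Mad knockdown library lay above every control, as in 11.6% of all genes. Rpt3 had 73313, 77219 and 72425 in Mad knockdown replicates 1, 2 and 3, against 61615, 69389.9 and 57915 in controls, a log2 fold change of 0.24 (limma, adjusted p = 0.212). It was the only ATPase of the 6 with an unadjusted p-value under 0.05. Rpt4, the ATPase with the smallest change at 0.14, had 64628, 71066 and 66035 after Mad knockdown, against 59720.0, 68678 and 54797 in controls, and its groups overlapped. Among the receptors that hold ubiquitin chains, Rpn13 had 58717, 61229 and 57611 after Mad knockdown, against 50554, 55147 and 46030.4 in controls, without overlap and with a log2 fold change of 0.23. Rpn10 had 70519, 75607 and 65029 after Mad knockdown, against 62685, 64999 and 51277 in controls. Its log2 fold change of 0.24 was, with that of Rpt3, the largest of the base, and its lowest Mad knockdown value barely exceeded the highest control. Rpn1 and Rpn2, the large scaffold proteins of the base, had log2 fold changes of 0.18 and 0.20. In limma, adjusted p was 0.510 for Rpt4, 0.216 for Rpn13 and 0.316 for Rpn10.

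The lid takes ubiquitin off the substrate. Rpn11 is the metalloprotease that does this, and it had 62189, 63059.6 and 57729 in Mad knockdown replicates 1, 2 and 3, against 52899, 57338 and 47680.3 in controls. Rpn8, its inactive partner of the same fold, had 71388, 71273 and 66529.9 after Mad knockdown, against 60079, 65271 and 54849 in controls. Both had a log2 fold change of 0.22 and no overlap between groups. The largest change of the lid was in the scaffold subunit Rpn9 (FBgn0028691, chromosome 3R, 23731375 to 23733462, minus strand), with 79634, 80502 and 71717 after Mad knockdown, against 64485, 70369.7 and 55849 in controls. The groups did not overlap, at a log2 fold change of 0.29 ± 0.106 (SE; limma, adjusted p = 0.216). Exons of other genes cover 15.7% of its exon bases. Whether reads were counted by strand is not given in the sources used here, so part of its count is uncertain.

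A further pair of scaffold subunits had unadjusted p-values under 0.05. Rpn7 had 54454, 55056 and 51920.1 after Mad knockdown, against 46069, 49562 and 41373 in controls, and a log2 fold change of 0.24. Rpn3 had 75096, 77088 and 72808 after Mad knockdown, against 68752, 67897 and 58862 in controls, and a change of 0.21. Neither gene had overlapping groups. The smallest change of the lid was in Rpn12, with 36769.7, 37433 and 35611 after Mad knockdown, against 34357, 37118 and 32280.0 in controls, where the groups overlapped and the log2 fold change was 0.08 (SE 0.072). In limma, adjusted p was 0.260 for Rpn11, 0.244 for Rpn8, 0.198 for Rpn7, 0.260 for Rpn3 and 0.596 for Rpn12. Besides Rpn9, exons shared with other genes made up more than 5% of the exon bases in 6 subunits, namely Prosbeta2, Prosbeta5, Rpt2, Rpt4, Rpt6 and Rpn7.

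Levels were then compared between subunits per length, in TPM, which divides the reads of a gene by its exon bases and scales each library to the same total. Averaged over the 6 libraries, 31 of the 32 subunits lay within 1.5-fold of the median of 606 TPM. The highest was Prosalpha6, at 893 ± 39.0 after Mad knockdown and 765 ± 70.0 in controls (SD, n = 3 each). Without Prosalpha1, described next, the highest exceeded the lowest by 1.84-fold, and every subunit lay at or above the 97.2th percentile of the length-scaled levels of all genes tested. The alpha and beta rings had medians of 697 and 630.4, the base 597 and the lid 577. Whether the parts of the complex differ was not tested. All the subunits together took 2.10% ± 0.0818 of the length-scaled total after Mad knockdown and 1.77% ± 0.150 in controls (SD, n = 3 each).

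**Figure D3:**
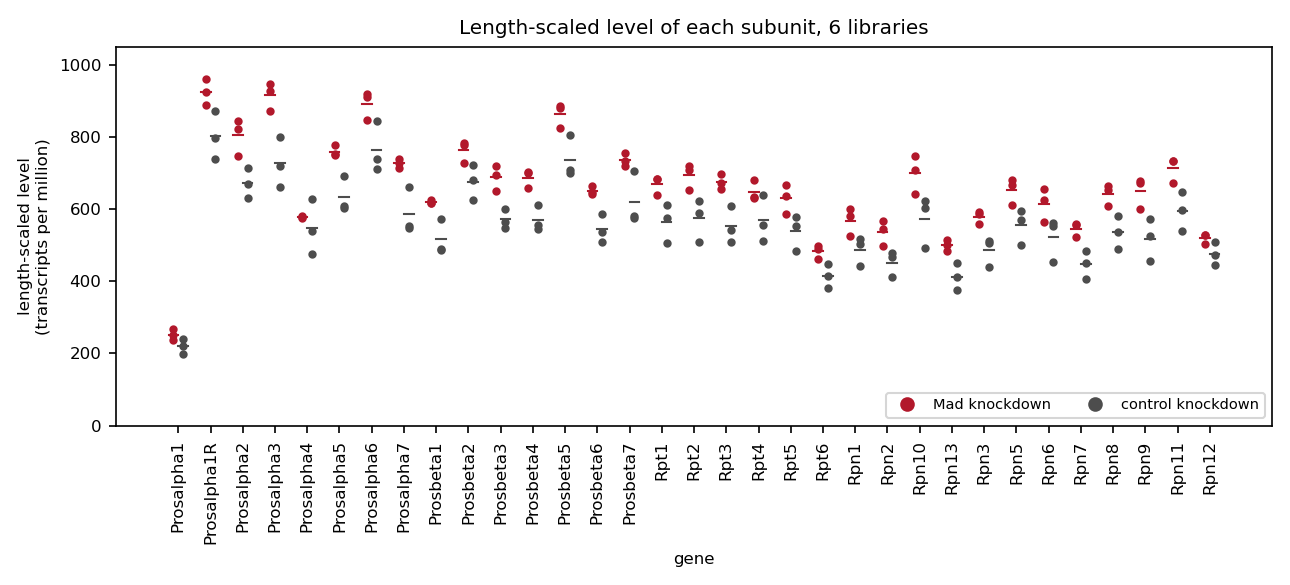
Dots are the length-scaled levels, in TPM, of each subunit and of Prosalpha1R in the 3 Mad knockdown and 3 control knockdown libraries, and short lines are group means. The lowest gene is Prosalpha1, and its paralogue Prosalpha1R lies among the highest.

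Prosalpha1 stood apart from the complex in level. It had 252 ± 14.4 TPM after Mad knockdown and 219.8 ± 20.6 in controls (SD, n = 3 each), the lowest of the 32. Its paralogue Prosalpha1R (FBgn0050382, chromosome 2R, 7830413 to 7831771, minus strand) lies 1734 bases from it on the same strand (Prosalpha1 is FBgn0263121, 7827303 to 7828678), and had 926 ± 35.4 after Mad knockdown and 803 ± 67.6 in controls. By normalized counts, Prosalpha1R exceeded Prosalpha1 by 3.53-, 3.62- and 3.67-fold in Mad knockdown replicates 1, 2 and 3, against 3.55-, 3.57- and 3.65-fold in control knockdown replicates 1, 2 and 3. The ratio was thus almost constant over the libraries. The sequences of the pair were not compared here, and if the copies are alike the counter may have split or dropped their reads, so the level of each is uncertain. Added together, their normalized counts were 82211, 80063 and 76767 after Mad knockdown, against 71169.5, 77955 and 65405 in controls, with overlapping groups. The log2 fold change of Prosalpha1R was 0.16 ± 0.084 (SE; limma, adjusted p = 0.369), close to the 0.15 of Prosalpha1.

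Of the other 15 paralogues, Rpt6R, a paralogue of an ATPase of the base, was the most abundant, at the 65.9th percentile of the length-scaled levels of all genes tested. It had normalized counts of 1698, 1609.6 and 1688 in Mad knockdown replicates 1, 2 and 3, against 2633, 1159 and 1625 in controls. The Mad knockdown values lay within the control range, which control knockdown replicate 1 widened, and the log2 fold change was -0.03 (SE 0.273). Rpt3R had 159.7, 141 and 103 after Mad knockdown, against 157, 130.0 and 130.3 in controls, with a log2 fold change of -0.07. Prosbeta2R2, a copy of the trypsin-like subunit, varied most, with 9.34, 95.2 and 19.1 after Mad knockdown, against 53.7, 44.7 and 53.8 in controls. Its values after Mad knockdown lay on both sides of the controls, and its log2 fold change was -0.92 with a standard error of 0.774. None of these 3 was called, with adjusted p-values in limma from 0.584 for Prosbeta2R2 to 0.967 for Rpt6R.

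The remaining 12 paralogues failed the filter and were not tested. Prosalpha4T1, Prosbeta4R1, Prosbeta4R2 and Rpn12R had 0 reads in all 6 libraries. Prosalpha3T, Prosalpha4T2, Prosalpha6T, Prosbeta2R1, Prosbeta5R1, Prosbeta5R2, Rpt4R and Rpn13R had at most 4 reads in all 6 libraries together. A count of 0 in a library allows up to 3 reads, by counting error only. Testis markers were scarce as well. Of 12 testis marker genes aly, Mst84Da and ocn were at 0 and only 3 passed the filter, and the summed normalized counts of the list ran from 226 to 269 after Mad knockdown and from 177 to 226 in controls. The smallest unadjusted p-values were those of Mst87F and bam, with log2 fold changes of 0.49 and -1.03, and none was called in limma.

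Members were also placed on the chromosomes. The 32 constitutive subunits were spread over 2L (4 genes), 2R (10), 3L (5), 3R (9) and X (4), with none on chromosome 4. The 4 genes on X had log2 fold changes from 0.04 to 0.24 with a median of 0.16, and the medians of the other arms ran from 0.18 to 0.22. Over all tested genes of the X chromosome the median was -0.02. No difference between chromosomes was tested.

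Regulators of the proteasome, its assembly factors and the shuttles that bring substrates to it were examined as a list of 18 genes. Of these 15 had a positive log2 fold change, the median was 0.16, and none was called in limma. DESeq2 called 2 of the 18, Sem1 and cnc, and 9.64% of all genes. An unadjusted p-value under 0.05 with a positive change was reached by 5, and with a negative change by 0, where 8.31% and 10.7% of all genes did so. In 8 of the 18 the Mad knockdown libraries lay above all controls, as in 11.6% of all genes.

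Sem1, a small lid subunit outside the naming rule, had the smallest unadjusted p-value of the list. Its normalized counts were 30591, 31078 and 29699.8 in Mad knockdown replicates 1, 2 and 3, against 24893, 26872 and 23863 in controls, without overlap, for a log2 fold change of 0.27 ± 0.067 (SE). Adjusted p was 0.0886 by limma and 0.00966 by DESeq2. Pomp, the chaperone that matures the core, had 34825, 35712 and 34444 after Mad knockdown, against 30081, 33377 and 28966 in controls, a log2 fold change of 0.19 (limma, adjusted p = 0.233). The changes of both lay in the range of the subunits themselves.

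The transcription factor gene cnc encodes the fly counterpart of the Nrf factors, which are known to drive proteasome genes when the proteasome is impaired. It had 91083, 83482 and 78128 in Mad knockdown replicates 1, 2 and 3, against 67443, 73121 and 64073 in controls. The groups did not overlap, the log2 fold change was 0.30 ± 0.091 (SE), and adjusted p was 0.146 by limma and 0.0249 by DESeq2. Its DNA-binding partner maf-S had 2826, 2816 and 2705 after Mad knockdown, against 2567, 2681 and 2550.5 in controls, a log2 fold change of 0.10. Keap1, which holds Nrf-type factors in check, had 2329, 2782 and 2191 after Mad knockdown, against 2248, 1869 and 1804 in controls. Its groups overlapped at a log2 fold change of 0.30 (limma, adjusted p = 0.252). Ufd1, a cofactor of the segregase TER94 that pulls tagged proteins out of complexes, had 11848, 12959 and 11763 after Mad knockdown, against 10476, 11095 and 9254 in controls, a log2 fold change of 0.25. TER94 itself had a log2 fold change of 0.18 without overlap between groups, and the deubiquitinase genes Usp14 and Uch-L5 had changes of 0.17 and -0.15 with overlap.

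Ubiquitin and the enzymes that attach it were examined as a further list, and its difference from the subunits was not tested. Of 21 genes tested 9 had a positive log2 fold change, the median was -0.01, and none was called in limma. DESeq2 called 1 of the 21, RpS27A, and 9.64% of all genes. RpS27A, which encodes ubiquitin fused to a ribosomal protein, had 67787, 71001 and 69777 in Mad knockdown replicates 1, 2 and 3, against 78163, 81633 and 83462 in controls. The groups did not overlap, the log2 fold change was -0.22 ± 0.069 (SE), and adjusted p was 0.154 by limma and 0.0135 by DESeq2. The other fusion gene, RpL40, had a log2 fold change of -0.13, also without overlap. With park, 3 of the 21 genes lay below all controls and 0 above. Of the 10348 genes tested, 1341 lay below all controls and 1201 above. The polyubiquitin genes Ubi-p5E and Ubi-p63E had overlapping groups and log2 fold changes of 0.10 and -0.08. The F-box gene slmb had a log2 fold change of 0.24 with overlapping groups (limma, adjusted p = 0.225). It was the only gene of the list with a positive change at an unadjusted p-value under 0.05, as had 8.31% of all genes. RpS27A was the only one with a negative change, as had 10.7% of all genes. CHIP, 1 of the 22 genes written for the list, was not found under that name.

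Other large complexes were placed beside the proteasome. The COP9 signalosome and the initiation factor eIF3 are built from subunits related to those of the lid, and CCT is a ring-shaped chamber for protein folding. The COP9 signalosome had 4 of 8 genes with a positive log2 fold change and a median of 0.01, eIF3 had 9 of 13 and 0.02, and CCT had 5 of 8 and 0.02. Mad knockdown libraries lay above all controls in 1 gene of the COP9 signalosome (CSN1b, 0.11), in 2 of eIF3 (eIF3d1, 0.14, and eIF3l, 0.16) and in 1 of CCT (CCT7, 0.17). These shares are near the 11.6% of all genes. No gene of the 3 lists was called in limma, where the smallest adjusted p was 0.244, of CCT7. The next smallest unadjusted p-values in the COP9 signalosome and CCT were those of CSN8 and CCT8, with log2 fold changes of 0.11 and -0.05. The subunits of eIF3 ran from -0.11 to 0.16 and those of CCT from -0.05 to 0.17. The proteasome subunits, from 0.04 to 0.29, overlapped both ranges. The difference between the lists was not tested.

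**Figure D4:**
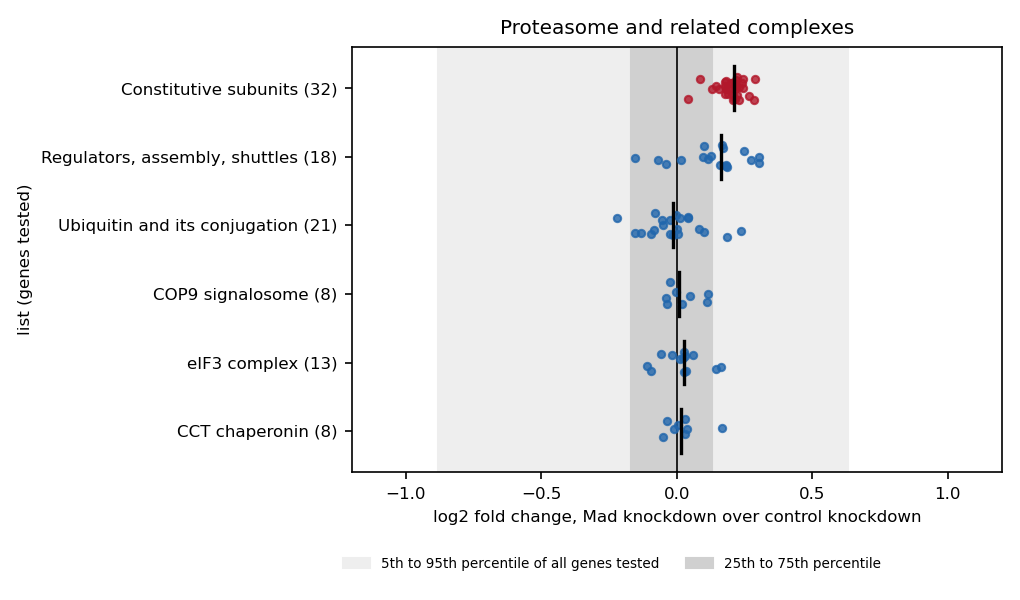
Points are log2 fold changes (Mad knockdown over control) of the genes of each list, black bars are list medians, and grey bands hold the 25th to 75th and 5th to 95th percentiles of all genes tested. The constitutive subunits have a median of 0.21 and the regulators 0.16, whereas the other 4 medians lie between -0.01 and 0.02.

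Tissue markers were measured in the same libraries. All 12 muscle genes of the marker list had a negative log2 fold change after Mad knockdown, with a median of -0.84, and 2 were called in limma, Act87E (-1.29, adjusted p = 0.0390) and Tm2 (-0.89, adjusted p = 0.0456), where 2.59% of all genes were. edgeR called 1 of the 12 and 2.44% of all genes, and DESeq2 called 11 of the 12 and 9.64% of all genes. Their summed normalized counts were 1846076, 1304447 and 1981044 in Mad knockdown replicates 1, 2 and 3, against 3891023, 2800656 and 3040137 in controls. The groups did not overlap. In each group the library with the highest proteasome sum, replicate 2 in both, had the lowest muscle sum. Mad knockdown replicate 3 had the lowest proteasome sum and the highest muscle sum of its group, whereas control knockdown replicate 3, with the lowest proteasome sum, had the middle muscle sum.

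Markers of other tissues did not all go one way. Salivary gland genes summed to 29.0 to 147 after Mad knockdown and to 297 to 2573 in controls, and all 5 that were tested had negative log2 fold changes, led by Sgs3 (-4.77) and Sgs5 (-3.93). Blood cell genes summed to 72727 to 81371 after Mad knockdown and to 90696 to 126939.7 in controls. Of these 5 genes Hml (-0.85), Pxn (-0.30) and Ppn (mean 3869 after Mad knockdown and 8931 in controls) lay below all controls, whereas eater (-0.16) and NimC1 (0.67) had overlapping groups, NimC1 with the higher mean after Mad knockdown. Trachea genes summed to 13531 to 34639 after Mad knockdown and to 34934 to 66749 in controls. That sum was carried by serp (-1.22) and verm (-1.41), which lay below all controls, while btl (0.13) and trh (0.23) lay above all controls. For comparison with both lists, 1341 of the 10348 genes tested lay below all controls and 1201 above. The sums of the remaining lists overlapped between the groups. Nerve genes summed to 1404 to 1844 after Mad knockdown and to 1594 to 1819 in controls, and fat body genes to 20014 to 39900.0 after Mad knockdown and to 24567 to 39221 in controls. Epidermis and cuticle genes summed to 7250803 to 10362187 after Mad knockdown and to 8048079 to 10531005 in controls. The smallest unadjusted p-values of these 3 lists belonged to elav (log2 fold change -0.39) and brp (0.48), to apolpp (-0.38) and Lsp1alpha (0.62), and to Lcp3 (-0.87) and Cpr65Av (-2.46). None of the genes of these 6 lists was called in limma, which called 2.59% of all genes. DESeq2, which called 9.64% of all genes, called elav, Hml, Ppn, Sgs3, Sgs5 and Sgs7. No marker of muscle or of these 6 tissues was at 0 in all libraries. The part of these tissue markers in the proteasome values was not tested.

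**Figure D5:**
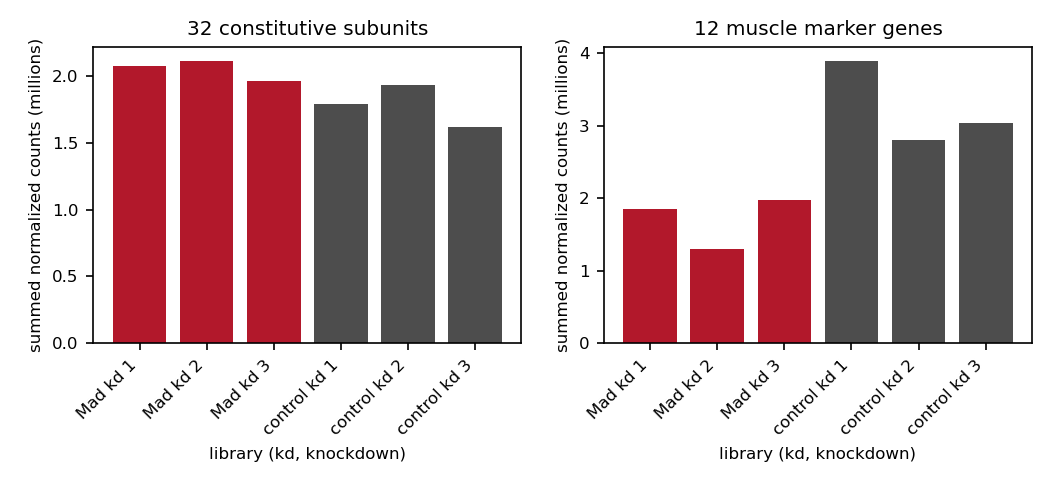
Bars are summed normalized counts in each library, for the 32 constitutive subunits on the left and for the 12 muscle marker genes on the right. The proteasome sum lies between 1955036 and 2109758 after Mad knockdown and between 1621944 and 1932126 in controls, and the muscle sum between 1304447 and 1981044 after Mad knockdown and between 2800656 and 3891023 in controls.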

How the data were processed

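Poly(A) RNA of 6 pooled larval lysates was sequenced, per the labels' protocols, and dm6 is the build named in the submitters' processing notes. The aligner, counter, annotation and strand setting are not given in the sources used here. The deposited signal is a table of normalized gene counts, 1 column per library. All values above 0 were whole multiples of 1 step per column within a tolerance of 0.001 (100% of values), and the inverse steps equalled median-of-ratios size factors, so reads were recovered. Replicates differed from each other by far more than counting noise.

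Genes that reached a normalized count of 10 in 3 or more libraries (10348) were tested on log2(count + 1), so fold changes understate those of low genes. limma 3.58.1 (R 4.3.3) was run with a trend, two-sided, with Benjamini-Hochberg adjustment over all genes and a threshold of 0.05. edgeR 4.0.16 and DESeq2 1.42.0 were run on recovered reads. The code was tested on simulated data with planted changes larger than those of the subunits, so detection of changes of their size was not tested. Coordinates and lengths come from Ensembl 115 (BDGP 6.54, dm6 coordinates), which is not known to be the authors' annotation. Counting error is small at this depth beside the spread between replicates. TPM was computed from recovered reads and the union of exons.

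Members and lists were chosen with earlier results of these data known. Values of every library were given for the catalytic subunits and, in each ring, the base and the lid, for the largest and smallest change and for genes with an unadjusted p-value under 0.05 without overlap between groups, 21 members in all. The rule also took paralogues, Mad, and from each other list called genes or the 2 smallest p-values, with cnc, maf-S, Keap1, Pomp and Sem1. Other genes were named after their values were seen. Correlations of the deviations of same-numbered libraries, over all genes tested, were -0.141, -0.066 and 0.0373, so replicate numbers were not taken as pairs. For the constitutive subunits alone, replicate 2 had the highest median and replicate 3 the lowest in both groups.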

Additional observations from a re-analysis of the deposited data

How the results depend on the processing

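The median log2 fold change of the constitutive subunits, 0.21, kept its sign in all 19 alternatives. It ran from 0.206 to 0.229 over the 13 that kept all libraries and from 0.144 to 0.262 when 1 library was left out, and all 32 subunits were positive except Prosalpha4 in the quantile-normalized fit (-0.012) and in the fit without control knockdown replicate 3 (-0.058). Prosalpha4 ran from -0.058 to 0.145 over the fits that left out 1 library. Of 399 fits of the 21 members given in full, 396 kept direction and call, which here means staying uncalled. Several of the fits leave the fold change as it was by design, such as those without the variance trend or with the replicate block. DESeq2 called Prosalpha3. Subunits with a positive change at an unadjusted p-value under 0.05 numbered 15, where 8.31% of all genes reached this. They numbered 23 after quantile normalization (10.1% of all genes) and 23 with the length and level trend removed (9.04%). When 1 library was left out they numbered from 0 without control knockdown replicate 3 (6.25%) to 23 without control knockdown replicate 2 (6.81%). The number of proteasome genes called was 1 with DESeq2 and 0 in all others. Over all genes, 268 were called, against 138 without the variance trend, 117 with the replicate block, 998 with DESeq2 and 43 to 193 when 1 library was left out. Mad had a log2 fold change of -0.568 without the variance trend (limma, adjusted p = 0.0981), -0.568 with the replicate block (limma, adjusted p = 0.0787), -0.551 in edgeR (adjusted p = 0.0516) and -0.658 to -0.470 when 1 library was left out. For none of these was the cause tested. No same-numbered libraries were paired, since their correlations over all genes tested ran from -0.141 to 0.0373. With the replicate block no proteasome gene was called, and the count of 15 became 18 (share of all genes in that fit not given). Fits with 2 libraries in a group rest on the spread pooled over both groups. Depth does not limit the subunits, which held at least 12809 reads in every library, but it limits the 12 paralogues that had 4 reads or fewer.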
